A study of Mus musculus with 12 samples.

Results

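The peaks described here are those that the authors' annotation ties to a transcript of the class retained_intron or processed_transcript. They number 1820 of the 17503 listed peaks with a gene name (10.4%) and lie in 1435 of 10279 gene identifiers. Of these, 987 carry the class retained_intron (816 genes) and 833 the class processed_transcript (647 genes), and 28 genes hold both. The members were chosen by the transcript class alone, so their fold changes played no part in the choice. For comparison, 687 of the 1435 genes also hold peaks tied to a protein_coding transcript, 1065 in all, and the other 748 genes hold none.

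The study examined N6-methyladenosine (m6A) in postnatal mouse liver with and without Mettl3. All 12 libraries come from C57BL/6 liver, in 4 groups of 3 replicates. Each genotype, wild-type or Mettl3-deficient, has an m6A immunoprecipitate (IP) group and an input group. Poly(A) RNA was fragmented and precipitated with an anti-m6A antibody, and input mRNA was sequenced beside it. The sources used here do not give the age in days, the allele or the cells in which Mettl3 was lost, and whole liver holds cells other than hepatocytes. The table holds 1 comparison between the genotypes, and no column of it belongs to a single library. The value of each member in each mouse, the depth behind it and the spread between mice are therefore unknown. Every log2 fold change and false discovery rate (FDR) of a peak below is the authors' own.

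m6A is laid down on nascent RNA by a complex whose catalytic subunit is METTL3, at adenosines within a short consensus that often holds GGAC. In mRNA it is concentrated in long internal exons, in last exons and around the stop codon. A retained_intron transcript is an alternatively spliced form that keeps intron sequence, and many such forms stay in the nucleus or are degraded. A processed_transcript is a spliced form of a locus with no open reading frame in the annotation. Both classes usually share most of their exons with the coding mRNA of the gene, so reads of the coding mRNA can fall in a peak that carries the name of a noncoding form.

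The class given to a peak did not always describe the place where the peak lay. Neither class has an untranslated region (UTR) of its own, yet 730 members were labelled 3′ UTR and 612 were labelled 5′ UTR. The remaining 478 carried an exon label, which names a transcript. In 290 of these 478 (60.7%) that transcript was another than the one that gave the class, against 456 of 2250 exon peaks (20.3%) of the protein_coding class. Called retained_intron peaks in an exon of their own transcript were negative in 24 of 52 (46.2%, 33.3 to 59.5). In an exon of another transcript 37 of 137 were (27.0%, 20.3 to 34.99). For processed_transcript the counts were 31 of 70 (44.3%, 33.2 to 55.9) and 39 of 93 (41.9%, 32.4 to 52.1), with little between them. The retained_intron gap cannot be told apart from cover of the transcript start. Of listed retained_intron exon peaks, 10 of 84 in their own transcript covered it, against 155 of 169 in another transcript. Called retained_intron exon peaks were negative in 23.5% at the start and in 52.6% away from it. Members often covered the start of their transcript: 626 retained_intron peaks (63.4%) and 456 processed_transcript peaks (54.7%) did, against 2716 of the 14135 protein_coding peaks (19.2%). Whether a member lies inside the retained intron itself was not tested, since no exon coordinates were used here.

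Peaks also ran over long stretches of genome or outside their gene. The median span of a member from start to end was 802 bp, against 474 bp for protein_coding peaks, and 336 members (18.5%) spanned over 5000 bp, introns included. A RefSeq gene of assembly GRCm38.p6, the same build as mm10, was found for 1428 of the 1435 genes. Of the 1804 members of those genes, 1548 (85.8%) overlapped the span of their own gene and of no other coding gene. A further 169 overlapped their own gene and another coding gene, 64 overlapped only another coding gene, and 23 overlapped neither. Among the called peaks of that group of 64, 38 of 54 were negative (70.4%, 95% Wilson interval 57.2 to 80.9), against 451 of 1221 (36.9%, 34.3 to 39.7) among members in their own gene only. The 64 lie in 38 genes, and 7 of the negative ones carry the name Glod4, most of them nearly identical in span. A transcript start was covered by 9 of the 64 (14.1%), against 962 of the 1548 (62.1%). The gap cannot be told apart from that cover. Protein-coding peaks of the same genes that overlapped only another coding gene were negative in 10 of 13 called (76.9%). Within own genes only, the negative share of called members was 29.4% for retained_intron and 46.3% for processed_transcript.

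Short stretches of sequence can be shown for members that cover a RefSeq transcript start. A start lay inside 199 members labelled 5′ UTR, and GGAC was present in the first 50 bases of 49 of them (24.6%). The reverse complement GTCC, which cannot overlap GGAC, was present in 38 (19.1%). For 1404 protein_coding peaks labelled 5′ UTR the shares were 19.9% and 19.7%, and for all 32851 RefSeq starts listed they were 18.9% and 17.4%. Of the called members, GGAC was present in 4 of 23 with a negative change (17.4%) and in 33 of 127 with a positive change (26.0%). These shares describe the letters of the window and not methylated sites. The 8 windows below each hold 30 bases of RefSeq sequence around the first GGAC after the start, read 5′ to 3′ on the transcript's strand, with GGAC in capitals. In Prelid1 and Cox20 the window opens just upstream of the start. They are the members with the strongest evidence among 32 genes whose called peak covers the whole window, namely all 3 with a negative change and 5 of those with a positive change.
Egln2, chr7:27165679-27165708, minus strand: tcaagctcctagagacaactgtGGACttgg
Leo1, chr9:75441544-75441573, plus strand: agccgagcaagccaaggccgcGGACcaagc
Arhgef26, chr3:62338797-62338826, plus strand: ttcttgcactcagggtctGGACaggcagct
Creb3l3, chr10:81092548-81092577, minus strand: caggcggtgacagGGACccgaaaagaggct
Ndufb10, chr17:24724374-24724403, minus strand: tccttagcgggcccagcggatccGGACgtg
Prelid1, chr13:55322049-55322078, plus strand: atggcggcggtagGGACctgggcgcggtcc
Cox20, chr1:178319145-178319174, plus strand: ggggcgatggagaGGACtggtgcccatggc
Nadk, chr4:155563835-155563864, plus strand: ggggcttggtggtgccggtctctGGACcga
In the authors' deposited table the first 3 stood at -0.68 (Egln2, a prolyl hydroxylase of the hypoxia response), -0.72 (Leo1, a subunit of the PAF1 elongation complex) and -1.36 (Arhgef26). The authors' deposited table gives positive values for the other 5: 1 for Creb3l3, a liver transcription factor of lipid metabolism, and 0.41 for Ndufb10, a subunit of respiratory complex I. It also gives 0.86 for Prelid1, 0.78 for Cox20 and 0.99 for Nadk (authors' deposited table). Prelid1 and Cox20 encode mitochondrial proteins and Nadk encodes a kinase that makes NADP. Both signs appear here because the windows were chosen by sign, and 3 of the 32 genes had a negative change.

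The comparison asked how m6A enrichment at these peaks differed between Mettl3-deficient and wild-type liver. Which genotype was divided by which is not stated in the header. Since METTL3 makes m6A, a negative value likely stands for lower enrichment without Mettl3, but this reading rests on the design alone. The text therefore gives signs and not a rise or fall. Called peaks are those with a deposited FDR of at most 0.05. Nothing in the sources says whether replicate spread entered that FDR, so it is not known how far it speaks for mice in general.

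Most members were called, and more of them were positive than negative. Of the 1820 members 1444 were called (79.3%), beside 76.2% of all listed peaks, so being called does not mark the members. Of the 1444, 553 were negative and 891 positive. The negative called members are 30.4% of all members, beside 40.6% of all listed peaks, and the positive ones are 48.96%, beside 35.6%. As a share of the called peaks, 38.3% of members were negative (95% Wilson interval 35.8 to 40.8, which covers counting error over peaks only). Among called protein_coding peaks the share was 55.4% (54.5 to 56.4). No test between them is given, because peaks are not replicates and no values per library were used.

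Both transcript classes held more positive than negative peaks, and retained_intron peaks had the lower negative share. Of 782 called retained_intron peaks 244 were negative (31.2%, 28.1 to 34.5), and of 662 called processed_transcript peaks 309 were negative (46.7%, 42.9 to 50.5). Peaks on transcripts of the class nonsense_mediated_decay, a further class of the annotation, were negative in 251 of 528 (47.5%, 43.3 to 51.8). The interval of the retained_intron class thus did not meet that of either other class.

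A low share was also found at protein-coding peaks of the genes that hold members. These 864 called peaks were negative in 43.1% (39.8 to 46.4), against 56.5% (55.5 to 57.5) of 10028 called protein_coding peaks in all other genes. The shares of the former were weighted to the mix of 3′ UTR, 5′ UTR and exon labels among called members. The result was 38.9%, beside 38.3% in the members themselves. The genes behind these values differ, since the members lie in 1435 genes and the coding peaks in 687. In genes with a protein_coding peak the members stood at 35.5%. The same weighting of all protein_coding peaks gave 54.0%. For each class apart, the weighted share of the same genes was 38.0% beside 31.2% for retained_intron, and 39.9% beside 46.7% for processed_transcript. Weighted to cover of the transcript start as well, the same genes gave 34.9% and all protein_coding peaks 51.4%, beside 38.3% in members. For the classes apart the same genes then gave 34.0% for retained_intron and 35.9% for processed_transcript. The smallest group behind these values of the same genes held 3 called peaks, which stood for 236 called members labelled 3′ UTR at the start. A further 7 stood for 227 called members with an exon label there. Of all protein_coding peaks, 61 and 62 called ones stood for these members. The low negative share was therefore also present at coding-class peaks of these genes. Weighted by label alone, their share had the classes on either side of it. With the start included, the 34.0% lay inside the retained_intron interval (28.1 to 34.5), and only processed_transcript stood apart.

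The size of the changes differed between the signs in the same way as in other peaks. Negative called members had a median log2 fold change of -1.24 (quartiles -1.67 and -0.84), and positive ones had a median of 0.69 (0.53 and 0.91). The protein-coding peaks of the same genes had medians of -1.24 and 0.69. Among negative members 358 (64.7%) had a log2 change of 1 or more in size, and among positive members 168 (18.9%) did. With that minimum the majority turned: 68.1% of the 526 remaining members were negative, beside 72.9% of the protein-coding peaks of the same genes and 80.3% of all protein_coding peaks. The median of all called members, 0.48, lies in the positive group, and only 17 called members had a value within 0.25 of 0.

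**Figure D1:**
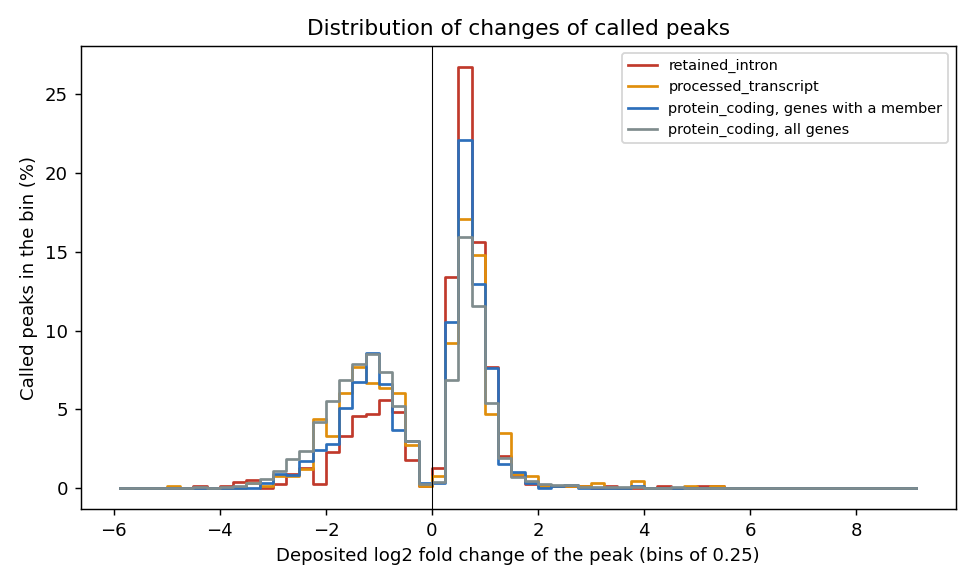
Percent of called peaks (vertical axis) by deposited log2 fold change in bins of 0.25 (horizontal axis), for retained_intron, processed_transcript, protein_coding peaks of genes with a member, and all protein_coding peaks. All 4 lines have a broad negative and a narrow positive group with few values at 0, and 26.7% of called retained_intron peaks lie between 0.5 and 0.75, against 15.97% of all protein_coding peaks.

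Evidence was stronger for large negative than for large positive members, as it was for all protein_coding peaks. The deposited log10 FDR is used as a score of evidence, more negative being stronger, with a floor at -434. Its median was -19.9 for negative members with a change of at least 1 and -3.79 for positive ones. Of 82 negative members with a change of at least 2, 58 had a score of -10 or below (70.7%), against 3 of 19 positive ones (15.8%). In all protein_coding peaks the 2 medians were -24.55 and -3.57. There 910 of 1186 negative peaks with a change of at least 2 had such a score (76.7%), against 6 of 141 positive ones (4.3%). The 376 members that were not called had a median span of 300 bp and were positive in 268 and negative in 108.

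Annotated position separated negative from positive members. Of members labelled 3′ UTR 329 of 634 called were negative (51.9%, 48.0 to 55.8), of those with an exon label 131 of 352 (37.2%, 32.3 to 42.4), and of those labelled 5′ UTR 93 of 458 (20.3%, 16.9 to 24.2). The order was the same in either class. For retained_intron the shares were 43.6% (38.3 to 48.98), 32.3% (26.0 to 39.2) and 15.4% (11.5 to 20.2). For processed_transcript they were 60.7% (55.2 to 66.0), 42.9% (35.6 to 50.6) and 27.2% (21.4 to 33.9). The intervals of the 2 classes do not meet for the UTR labels and overlap for exons.

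Set against protein-coding peaks, the classes differed by label. Protein-coding peaks of the same genes were negative in 51.0% (3′ UTR, 46.8 to 55.2), 48.6% (exon, 40.7 to 56.6) and 14.5% (5′ UTR, 10.1 to 20.4). The processed_transcript share at 3′ UTRs thus lay near that of all protein_coding peaks (61.1%, 59.9 to 62.2), and the retained_intron share at 5′ UTRs near that of the same genes. In exons all protein_coding peaks reached 69.5% (67.1 to 71.8), above the interval of each member class and of the same genes. At 5′ UTRs all protein_coding peaks were also least often negative, at 32.2% (30.4 to 34.1), an interval that meets that of processed_transcript only. Peaks of the class nonsense_mediated_decay stood at 20.4% there, beside 20.3% in all members.

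**Figure D2:**
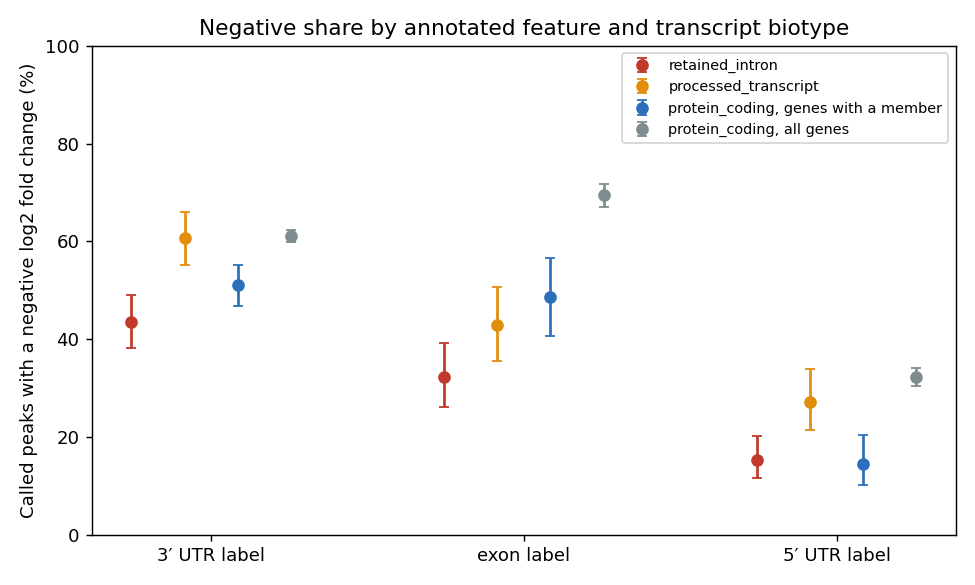
Percent of called peaks with a negative log2 fold change (vertical axis) by feature label (horizontal axis) for the 2 member classes, protein_coding peaks of genes with a member, and all protein_coding peaks. Points are shares and bars are 95% Wilson intervals over peaks; retained_intron falls from 43.6% at the 3′ UTR to 15.4% at the 5′ UTR.

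With all labels pooled, cover of the transcript start went with positive sign in members and in all listed peaks alike. Retained_intron peaks that covered the start of their transcript were negative in 111 of 502 called (22.1%, 18.7 to 25.9), while farther peaks were negative in 133 of 280 (47.5%, 41.7 to 53.3). For processed_transcript the counts were 142 of 381 (37.3%, 32.6 to 42.2) and 167 of 281 (59.4%, 53.6 to 65.0). The share was highest over 5000 bp from the start, with 52.2% of 138 retained_intron peaks and 65.8% of 161 processed_transcript peaks. Protein-coding peaks of the same genes were negative in 14.7% of 156 at the start and in 52.3% of 575 beyond 5000 bp. At the start 28.7% of all called members were negative, beside 29.6% of protein_coding, 30% of nonsense_mediated_decay and 31.3% of all listed peaks. Away from the start these shares were 53.5%, 61.9%, 60.1% and 61.3%. The gap was not the same under each label. Members labelled 5′ UTR were negative in 17.1% at the start and 55.3% away, and those with an exon label in 30.4% and 49.6%. Under the 3′ UTR label the shares were 47.5% (41.2 to 53.8) and 54.5% (49.6 to 59.3). For protein_coding peaks of that label they were 63.9% and 61.1%. In the last exon of a transcript members were negative in 29 of 53 called (54.7%, 41.5 to 67.3), against 307 of 340 (90.3%, 86.7 to 93.0) for protein_coding peaks. In internal exons 74 of 219 members were (33.8%, 27.9 to 40.3), against 609 of 969 (62.8%, 59.8 to 65.8). There 188 of 257 listed members covered a start (73.2%), against 52 of 1386 protein_coding peaks (3.8%). The gap in internal exons cannot be told apart from that cover.

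A position that does not use the labels gave a like order. Members of at most 1000 bp that lie in a RefSeq gene of known strand numbered 733, and each gene was cut into 5 equal parts from 5′ to 3′. Of these members 34.7% were centred in the first part of the gene and 40.8% in the last, while 65.6% of the protein-coding peaks of the same genes lay in the last. Called members were negative in 27 of 166 in the first part (16.3%, 11.4 to 22.6), 29 of 57 in the fourth (50.9%, 38.3 to 63.4) and 106 of 241 in the last (44.0%, 37.9 to 50.3). In the last part the retained_intron share was 37.6% (30.02 to 45.8) and the processed_transcript share 53.0% (43.3 to 62.5), on either side of the 42.6% (37.2 to 48.1) of the same genes.

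**Figure D3:**
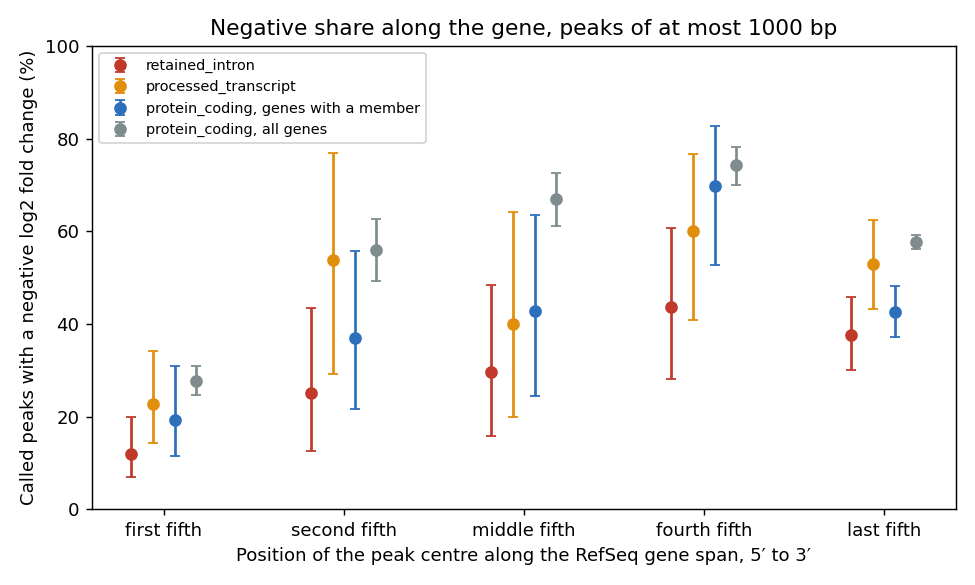
Percent of called peaks of at most 1000 bp with a negative log2 fold change (vertical axis) in 5 equal parts of the RefSeq gene span, 5′ to 3′ (horizontal axis), with 95% Wilson intervals over peaks, for the 2 member classes and protein_coding peaks. Shares are lowest in the first part, at 12% for retained_intron and 22.7% for processed_transcript, and the 3 inner parts rest on few member peaks.

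Within single genes, members and protein-coding peaks had the same sign more often than not. For each of the 499 genes with called peaks of both kinds, the leading peak (the one with the smallest FDR) of each kind was taken. The signs were alike in 66.5%, with 222 genes positive at each peak and 110 negative at each. The member was positive and the protein-coding peak negative in 112, and the reverse held in 55. Most leading peaks of each kind were positive, so some likeness of sign arises from that alone. How much was not estimated. The median difference, member minus protein-coding, was 0.11 on the log2 scale (quartiles -0.30 and 0.85), from medians of 0.52 and 0.44. With both peaks under the same feature label, 157 genes remained and the median difference was -0.02, with a like sign in 79.0%.

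Many of the unlike pairs had their peaks at opposite ends of the gene. In 158 genes the member was labelled 5′ UTR and the protein-coding peak 3′ UTR, and in 59 of them the member was positive and the coding peak negative, against 6 of the reverse. With a member at the 3′ UTR and a coding peak at the 5′ UTR (57 genes) the counts were 5 and 19. Retained_intron peaks matched to a coding peak of the same label had a like sign in 86.7% of 98 genes, with a median difference of 0.02. For processed_transcript it was 64.1% of 64 genes, with a median difference of -0.07. In 37 of these both peaks were labelled 3′ UTR, and there the member was negative and the coding peak positive in 12 and the reverse in 4. The median difference in those 37 was -0.50, with an interval over genes from -1.24 to 0.05 that takes in 0.

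**Figure D4:**
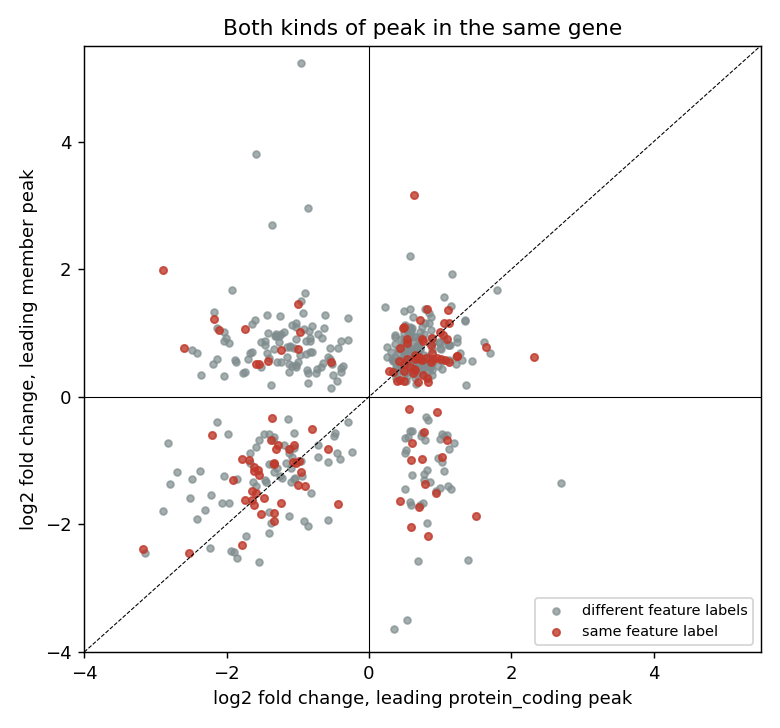
Log2 fold change of the leading member peak (vertical axis) against that of the leading protein_coding peak (horizontal axis) for 499 genes, each point a gene, in red where both peaks have the same feature label. The dashed line marks equal values; 222 genes lie in the upper right and 110 in the lower left quadrant.

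Some genes with a wide gap between their peaks show how position and evidence enter. Icam1, an adhesion receptor for leukocytes, had the largest positive difference. In the authors' deposited table its retained_intron exon peak, 90 bp wide, has 5.23 (log10 FDR -2.04) and its 3′ UTR peak has -0.96 (log10 FDR -55.4). The other genes of this kind were Itga6, an integrin (3.81 against -1.58), Lrif1 (2.69 against -1.36) and Fut8, a fucosyltransferase (2.96 against -0.86), as the authors' deposited table gives them, each with a member at the 5′ UTR and a coding peak at the 3′ UTR. The FDR scores of those members, -1.42, -1.43 and -2.03 in the authors' deposited table, were near the threshold. Psmd5, a chaperone of proteasome assembly, paired 1.99 with -2.90 in the authors' deposited table, but the member lies outside the RefSeq gene and within Cutal.

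At the other end, the prolactin receptor gene Prlr held negative peaks of both member classes. The authors' deposited table gives -2.55 in a last exon (retained_intron) and -1.80 (processed_transcript), while the protein-coding peak at the end of the gene stood at 1.39. Rev1, a translesion DNA polymerase, paired a retained_intron exon peak at -1.35 with a 5′ UTR peak at 2.70 in the authors' deposited table. Crebl2, a bZIP protein, paired -1.87 with 1.51, both labelled 3′ UTR, and a further coding peak stood at -1.47 in the authors' deposited table. Ido2, an enzyme of tryptophan catabolism, paired -3.49 (log10 FDR -227) in an exon with 0.53 in the 5′ UTR in the authors' deposited table.

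Glod4, a glyoxalase domain gene, gives its name to 6 of the 10 most negative called peaks with an established symbol, but these peaks lie elsewhere. Of its 8 called members 7 were negative, from -3.64 to -1.74 in the authors' deposited table. All 8 lie past the RefSeq end of Glod4 at 76220395 on chromosome 11. The 7 negative ones, between 76210571 and 76213169, overlap the neighbouring gene Gemin4, which encodes a protein of the SMN complex. Of these 7, 6 fall in 2 groups of 3 nearly identical spans, so they are not 7 separate regions. A protein_coding peak just upstream of the RefSeq start of Glod4, which also overlaps Mrm3, stood at 0.35 in the authors' deposited table.

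Such repeats were few. Merging overlapping members of a gene left 1718 regions from 1820 peaks, and 89 regions held 2 or more. Among the 74 regions with 2 or more called members, 3 held both signs. Across whole genes, 216 had 2 or more called members: 100 had positive ones only, 59 negative ones only and 57 both. Zscan20, a zinc finger gene, had 4 negative members between -1.94 and -1.35, and Ppib, an endoplasmic reticulum cyclophilin, had 4 positive ones between 0.42 and 0.74 (authors' deposited table), of which 3 overlap each other or the neighbouring gene Snx22. Ski, a repressor of TGF-beta signalling, held 4 negative processed_transcript peaks and a positive one at 0.93 near the end of the gene in the authors' deposited table.

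Where a gene held called peaks of both member classes, they mostly shared a sign. Of 21 such genes 11 were positive in both leading peaks, 8 negative in both and 2 of unlike sign. For Shroom1, an actin-binding protein gene, the authors' deposited table gives -1.79 (retained_intron) and -2.02 (processed_transcript). The apoptosis-inducing factor gene Aifm1 stood at 0.69 and 0.52 there (authors' deposited table). Psmd9, one of the 2 with unlike signs, had 0.80 and -0.67 in the authors' deposited table, and its negative peak lies within the neighbouring tyrosine catabolism gene Hpd.

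The largest changes by value alone were of mixed evidence on the negative side and mostly of weak evidence on the positive side. Besides Glod4 and Ido2, the most negative called members with an established symbol were Kiss1r (-4.47), Fam184b (-3.98) and Morn4 (-3.47), with log10 FDR scores of -2.15, -2.02 and -1.35 in the authors' deposited table. Kiss1r encodes the kisspeptin receptor. Among the most positive were Sarnp (5.39), an mRNA export protein gene, Dynlt1a (5.25) and Shoc2 (4.87), a scaffold of RAS signalling, with scores of -1.44, -2.16 and -3.30 in the authors' deposited table. Catsperg1 (4.25, score -1.46), Nrp2 (3.47, score -4.29) and the splicing factor gene Sf3a3 (3.17, score -1.65) followed in the authors' deposited table. Shoc2 also held a negative processed_transcript peak at -1.13 (score -9.51) in the authors' deposited table.

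In 2 of the 10 most positive peaks the evidence was strong. The ribosomal protein gene Rpl7a had a processed_transcript peak of 594 bp in exon 6 of 8, at 26912636 to 26913229 on chromosome 2, with 3.81 at the floor of the FDR scale in the authors' deposited table. That is a ratio of 14.03. Rsph3a, a radial spoke gene of cilia, had 3.00 (score -34.7) at its processed_transcript peak in the authors' deposited table, and its protein-coding peak, at -0.49, was not called. No other peak carries the name Rpl7a.

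The 30 members at the floor of the FDR scale are the best supported and were chosen for description after their values were seen. Of these, 20 were negative and 10 positive, 12 retained_intron and 18 processed_transcript. Negative ones in the 3′ UTR include the biotinidase gene Btd (-3.06), the signalling adaptor gene Traf4 (-2.84), the proprotein convertase gene Furin (-2.62) and the transcription elongation kinase gene Cdk9 (-2.43) in the authors' deposited table. The liver-secreted growth factor binding protein gene Igfals (-2.31) and Nags (-2.19), whose product makes the activator of the urea cycle, followed in the authors' deposited table. Cdk9 and Furin also held called positive members, at 0.73 in the 5′ UTR of Cdk9 and, within the 3′ UTR of Furin, at 0.48 and 0.24, per the authors' deposited table. The orphan nuclear receptor gene Nr2f6 had 3 negative members, at -2.16, -1.14 and -0.96 in the authors' deposited table, the last 2 overlapping each other.

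Positive members at the floor were small in size, apart from Rpl7a. Several encode proteins of metabolism, respiration or the ribosome. The authors' deposited table gives 0.89 for Adh1 (alcohol dehydrogenase), 0.72 for Bhmt (a methyltransferase of homocysteine metabolism), 0.52 for Cox6a1 and 0.64 for Uqcr11, the last 2 encoding respiratory chain subunits. For the ribosomal protein genes Rpl37 and Rps18 the authors' deposited table gives 0.84 and 0.77. At Rpl37 the protein-coding peak in the 5′ UTR stood at 0.88 there, close to the member (authors' deposited table). Of the negative ones, Tmem189 at -1.79 in the authors' deposited table lies outside its RefSeq gene, and its peak at 167689269 to 167690418 on chromosome 2 overlaps Cebpb, a liver transcription factor gene.

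**Figure D5:**
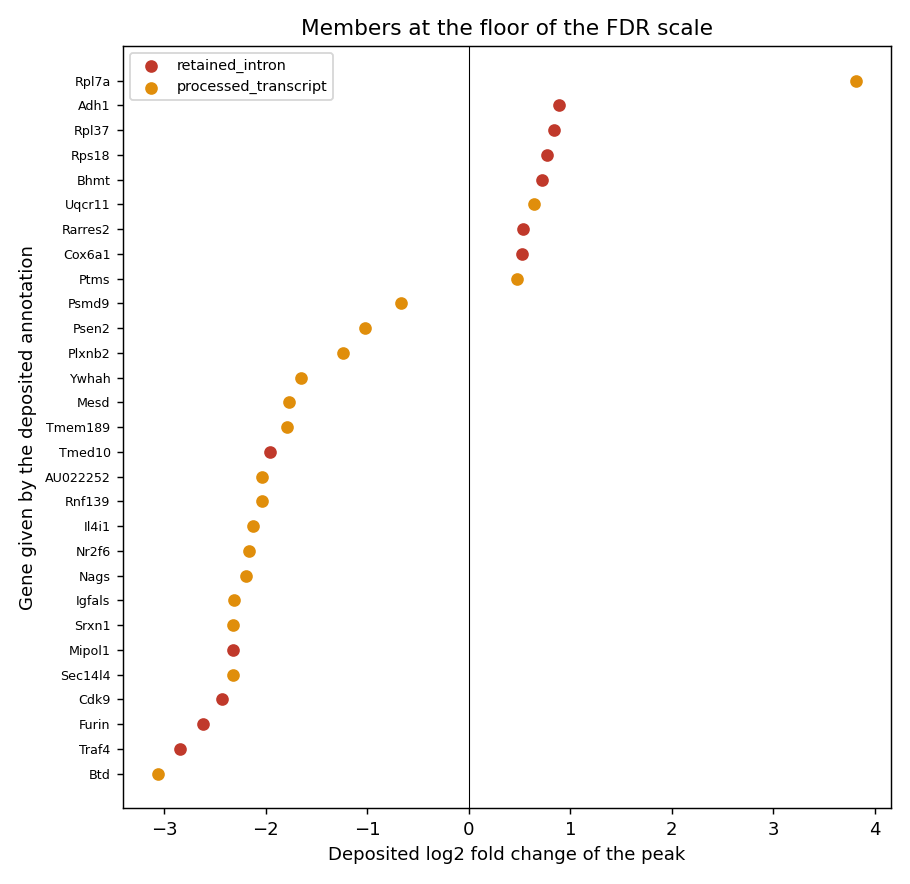
Deposited log2 fold change (horizontal axis) of 29 of the 30 member peaks at the floor of the FDR scale, 1 row per gene named by the deposited annotation, coloured by transcript class. The 20 negative values run from -3.06 to -0.67, and the 9 positive ones from 0.47 to 0.89 with Rpl7a apart at 3.81.

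Retained introns are a known mode of control in genes of splicing. Of 47 listed splicing factors and kinases 42 had any peak and 10 of these had a member of either class (23.8%), beside 13.96% of all genes with a listed peak. This share is not one of retained_intron peaks alone. The called members of Hnrnpdl, Prpf4b, Rbm39, Sfpq, Son and Tardbp were processed_transcript peaks, and those of Clk3, Srrm1 and Srsf6 were retained_intron peaks. Of their 13 members 10 were called, 2 negative and 8 positive, with a median of 0.59 beside 0.48 for all called members. The negative ones were Tardbp (-1.47, log10 FDR -181), the gene of the RNA-binding protein TDP-43, and the splicing kinase gene Prpf4b (-1.45) in the authors' deposited table. Positive ones include Srsf6 (0.61), a splicing factor of the SR protein family, Srrm1 (0.81), a splicing coactivator, and the kinase gene Clk3 (0.85) in the authors' deposited table. Rbm39 (1.38), Hnrnpdl (0.75), Srsf10 (0.57), Son (0.35) and Sfpq (0.25) were likewise positive in the authors' deposited table.

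Among these genes with leading peaks of both kinds, some pairs were alike in sign and some were not. Member and coding peak were both positive at Rbm39 (1.38 and 0.81), Srrm1 (0.81 and 1.14), Srsf6 (0.61 and 0.80) and Sfpq (0.25 and 0.40) in the authors' deposited table. At Tardbp, Ythdc1 and Son the member and a coding peak differed in sign. Tardbp paired its negative member with a called 5′ UTR peak at 0.94 in the authors' deposited table. Son, a speckle protein gene, had 0.35 at a processed_transcript peak that also overlaps Donson and -2.36 in a coding exon in the authors' deposited table, while its coding 5′ UTR peak, at 0.26, had the member's sign. Ythdc1, the nuclear reader of m6A, had -0.97 at its member and 0.74 at the coding peak at the end of the gene in the authors' deposited table. Of 21 writers, readers and erasers 16 had any peak, and Ythdc1 was 1 of 2 with a member (12.5%, near the 13.96% of all genes). The other was Mat2b, a regulatory subunit of the synthase of the methyl donor, with 1.90 and a log10 FDR of -1.61 in the authors' deposited table. RNA decay and related control was covered by 15 genes, of which 11 had any peak and 1 had a member, namely Ogt, the O-GlcNAc transferase gene, at 1.37 in the authors' deposited table.

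None of 35 listed hepatocyte factors and enzymes had a member under its own name, although 28 had another listed peak. That 0% stands beside 13.96% of all genes with a listed peak. The member named Tmem189 above overlaps Cebpb, which is on this list, so the count depends on the name given to a peak. Other genes of liver metabolism, such as Adh1, Bhmt and Ido2 above, did have members. Of the marker lists, hepatocyte, stellate and cholangiocyte genes had no member. Of 6 endothelial markers 5 had any peak and 1 had a member (Lyve1, 1.22), per the authors' deposited table. Of 7 Kupffer cell and leukocyte markers 6 had any peak and 1 had a member (Ptprc, 0.89 at its called peak), per the authors' deposited table. These are 20% and 16.7% of the genes with any peak, each resting on 1 gene, beside 13.96% of all genes. A peak table gives no expression levels, so it cannot check the tissue beyond this, and fewer cells of a type cannot be told apart from less RNA or less m6A per cell.

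By the gene ontology terms of the table, chosen after the data were seen, members of RNA and mitochondrial genes were mostly positive. Members of RNA splicing genes were negative in 11 of 48 called (22.9%, 13.3 to 36.5), against 95 of 226 protein_coding peaks of that term (42.0%, 35.8 to 48.6). For mitochondrial genes the counts were 61 of 218 (28.0%, 22.4 to 34.3) against 677 of 1449 (46.7%, 44.2 to 49.3), and for translation 7 of 61 (11.5%, 5.67 to 21.8) against 81 of 274 (29.6%, 24.5 to 35.2). Structural genes of the ribosome had 8 of 47 (17.02%, 8.89 to 30.1) against 37 of 165 (22.4%, 16.7 to 29.4), with intervals that overlap. Genes of DNA-binding transcription factors went the other way, with 28 of 43 members negative (65.1%, 50.2 to 77.6) and 366 of 497 protein_coding peaks (73.6%, 69.6 to 77.3). Of those members 9 of 19 retained_intron peaks and 19 of 24 processed_transcript peaks were negative. In each of the 10 terms computed the members' share was the lower one, as it was for all members. Listed members also covered a transcript start more often in each term. For RNA splicing 77.2% of members did, against 19.6% of protein_coding peaks, and for mitochondrial genes 64.6% against 24.2%. The gaps between members and protein_coding peaks of a term cannot be told apart from that cover.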

How the data were processed

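The authors deposited 1 table with 1 row per peak. The submitters' processing notes name HISAT2 2.1.0 and mm10. How peaks were found, filtered and compared is not given in the sources used here. The table's columns, per the file headers, hold what the authors deposited, namely a log2 fold change, a log10 FDR (used here as a score), a p-value rounded to 2 decimals, the distance from the transcript start and the width, the latter being other measures in bp. Of 17692 rows, 189 without a gene name have their last cells in another order and were left out, among them 9 of the member classes.

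Counts, medians and shares were computed from the deposited values with Python 3.11.15, pandas 2.3.3, numpy 2.4.6 and scipy 1.17.1. Shares carry 95% Wilson intervals, for counting error over peaks only. No test between groups was possible, since the table has 0 columns of single libraries. Depth is unknown.

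The members, gene lists and alternatives were chosen with earlier results of these data known. Named genes are the 10 most negative and 10 most positive called members with an established symbol, the 5 genes with the largest within-gene difference each way, and called members of the lists. Others were chosen after their values were seen. Promoter sequences are from RefSeq GRCm38.p6, and a motif search within peaks was not run. Steps were tested on simulated data, where 5 of 5 set values were recovered. A single member gene is not reported here.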

Additional observations from a re-analysis of the deposited data

How the results depend on the processing

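Of 24 values under alternatives, 16 stayed within the interval of the value given above or, for counts, within 1.5 times of it. The negative share of called members, 38.3%, was 68.1% with a change of at least 1, 41.1% when the median of the listed peaks (0.34) was set to 0 and 35.5% in genes with a protein_coding peak. It was 39.9% at an FDR of 0.01, 37.6% for peaks of at most 1000 bp, 38.8% with 1 leading member per gene, and, in alternatives added after the data were seen, 37.6% with 1 peak per overlapping region and 36.9% inside the RefSeq gene. The count of 1444 called members was 526 with a change of at least 1 and 729 with peaks of at most 1000 bp, since fewer peaks enter. The median of 0.48 was 0.14 after the same shift and 0.56 for peaks of at most 1000 bp. The within-gene difference of 0.11 turned to -0.02 when both peaks had the same feature label, and the cause was not tested beyond that construction. Retained_intron had a lower negative share than processed_transcript under each of the 5 alternatives computed for the classes, for example 31.4% against 45.3% for peaks of at most 1000 bp. No paired analysis was possible because the table holds no values per library, and for the same reason no replicate could be left out and no depth limit be given.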
